A study of Mus musculus with 9 samples.

Results

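The receptors that sense LPS and other microbial molecules were followed through 10 of the 14771 genes in the deposited table: the Toll-like receptor genes Tlr1, Tlr2, Tlr3, Tlr4, Tlr6, Tlr7, Tlr9 and Tlr13, and Cd14 and Ly96, which encode the co-receptors of TLR4 for lipopolysaccharide (LPS). They were chosen by name, and all 10 passed the filter on low counts. The cells were MH-S, an established line of mouse alveolar macrophages, and there were 3 groups of 3 RNA sequencing libraries. The CON group received culture medium, the LPS group 1 µg/ml LPS for 4 h, and the third group, SUR, carries the treatment label suramin. In the protocol 200 µM suramin appears only in combination with the same LPS treatment, and SUR is read here in that way; no group received suramin alone. All groups are the same line in medium with serum, no label says that the libraries came from separate cultures, and the p-values therefore measure the spread between these libraries, which may be technical.

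Toll-like receptors are membrane proteins that bind conserved microbial molecules and signal through adaptors such as MyD88 and TRIF to NF-kappaB and interferon regulatory factors. CD14, a lipid-anchored protein, hands LPS to the complex of TLR4 with MD-2, the product of Ly96, at the surface of macrophages. TLR2 pairs with TLR1 or TLR6 at the surface and binds bacterial lipoproteins. TLR3, TLR7, TLR9 and TLR13 sit in endosomes and bind double-stranded RNA, single-stranded RNA, unmethylated CpG DNA and bacterial ribosomal RNA.

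Library totals ran from 15729402 to 16675250 counts, and 11281 genes were tested. Levels are CPM, counts scaled by library total with TMM factors, unless FPKM is named. A gene is called when the quasi-likelihood test of edgeR gives it a Benjamini-Hochberg adjusted p under 0.05 over all tested genes. All 8 macrophage markers (Adgre1, Itgam, Csf1r, Cd68, Lyz2, Ptprc, Spi1 and Fcgr1) were at 1 FPKM or more in some library. Of 10 markers of alveolar macrophages, 3 were (Itgax, Mrc1 and Fabp4), while Siglecf, Marco, Pparg, Chil3 and Plet1 stayed under 1 FPKM in every library, so the defining alveolar markers were nearly absent. Of the listed markers of epithelial cells, fibroblasts and endothelium, lymphocytes and neutrophils that the table holds, 0 reached 1 FPKM, and of 5 dendritic cell markers 1 did (Zbtb46). In such bulk RNA, fewer expressing cells and less RNA per cell cannot be told apart. The library CON 1 stood above CON 2 and CON 3 in Tlr2, Cd14 and the LPS-raised gene Tnfaip3, and results that rest on it are given with and without it. Libraries with the same number in different groups deviated together, most of all those numbered 1, while numbers 2 and 3 also went with each other. A fit with the number as a block is therefore also given where it changes a call.

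In CON, the order of the receptor mRNAs per length, as mean FPKM ± SD of 3 libraries, began with Cd14 (76.4 ± 35.1) and Tlr2 (46.4 ± 30.9). Tlr7 (13.6 ± 1.08), Tlr1 (13.6 ± 0.480), Tlr13 (12.5 ± 1.45) and Tlr9 (11.6 ± 1.17) followed and did not differ from their neighbours beyond this spread. Tlr4 (9.03 ± 1.36) and Ly96 (8.31 ± 2.20), the pair that forms the LPS receptor, lay next to each other within their spread, above Tlr6 (5.92 ± 1.08), whose highest library reached the range of Ly96. Tlr3 was lowest at 2.55 ± 0.190 FPKM. In each CON library Cd14 was above Tlr2. In LPS the first places were further from the rest, with Cd14 at 532 ± 18.5 and Tlr2 at 448 ± 18.1 FPKM against 13.2 ± 0.378 for Tlr7. In SUR, Cd14 (170 ± 20.1 FPKM) and Tlr2 (160 ± 32.4 FPKM) overlapped.

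The comparison of LPS with CON asked which receptor genes differ after 4 h of LPS. Cd14 and Tlr2 rose 7.68-fold and 10.6-fold, and Tlr6 and Tlr13 fell 1.47-fold and 1.58-fold (n = 3 libraries per group). The other 6 members were not called, and 4 of these, Tlr4, Tlr1, Tlr3 and Tlr9, were called lower when library number was a block. Of the 10 members 2 were called higher, where 8.98% of all tested genes were, and 2 lower, where 9.36% were. With the block 2 were called higher (20.1% of all genes) and 6 lower (21.7%). Without CON 1 there were 2 higher (9.97%) and 2 lower (8.27%), Tlr4 taking the place of Tlr6, and without all libraries numbered 1 there were 2 higher (15.7%) and 4 lower (14.4%). The median log2 fold change of the 10 was -0.24, beside -0.01 over all tested genes. The LPS and CON libraries did not overlap for 2 members that were higher in LPS (15.2% of all genes) and 5 that were lower (16.8%).

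**Figure D1:**
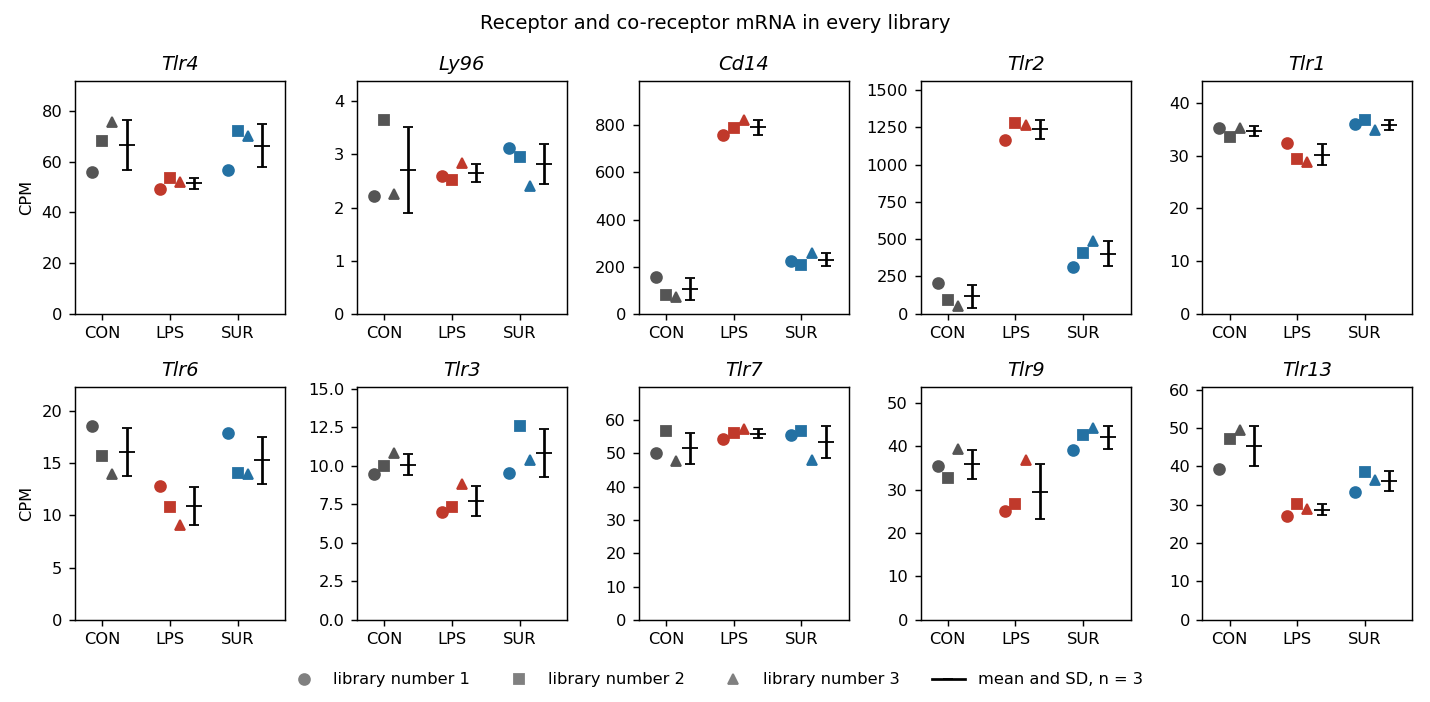
CPM (vertical axes, linear, each panel with its own scale from 0) of the 10 genes in the CON, LPS and SUR libraries; the marker shape gives the library number, and the black bar is the mean ± SD of 3 libraries. Cd14 and Tlr2 are highest in all LPS libraries and intermediate in SUR, whereas Tlr1, Tlr3, Tlr4, Tlr6 and Tlr13 are lowest in the LPS libraries. Of the latter only Tlr6 and Tlr13 were called in LPS against CON.

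The comparison of SUR with LPS asked which receptor genes differ when suramin is present with LPS. Cd14 and Tlr2 fell 3.45-fold and 3.07-fold, and Tlr1, Tlr3 and Tlr9 rose 1.19-fold, 1.40-fold and 1.42-fold. These are 2 members called lower, beside 7.93% of all tested genes, and 3 called higher, beside 9.29%. With the block the 2 lower calls remained (22.7% of all genes) and 6 members were called higher (22.6%): Tlr4, Tlr6 and Tlr13 besides the former. Without CON 1 there were 2 higher (8.86%), Tlr4 and Tlr13, and 2 lower (9.19%), and without the libraries numbered 1 there were 6 higher (14.7%) and 2 lower (15.2%). The median log2 fold change of the 10 was 0.29, beside -0.01 over all tested genes. The libraries of the groups did not overlap for 2 members lower in SUR (17.2% of all genes) and 6 higher (17.8%). Both comparisons use the same LPS libraries, so their values are set side by side and are not independent.

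The comparison of SUR with CON asked what remained different from medium alone. edgeR called 0 of the 10 members, while 0.390% of tested genes were called higher and 0.0355% lower. At an unadjusted p under 0.05 there were 3, and DESeq2 called 2, limma-voom 0, limma on FPKM 0 and the block 3. Over the whole table DESeq2 called 224 genes higher and 33 lower, and no share of all genes is at hand for the unadjusted count. Those called with the block were Cd14 and Tlr2, higher in SUR (7.37% of all genes were), and Tlr13, lower (4.18%). Without CON 1 there were 2 higher (1.43% of all genes) and 0 lower (0.0439%), and without the libraries numbered 1 there were 2 higher (4.44%) and 1 lower (0.742%). The SUR and CON libraries did not overlap for these 3 members, 2 of them higher (8.35% of all genes) and 1 lower (6.67%).

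**Figure D2:**
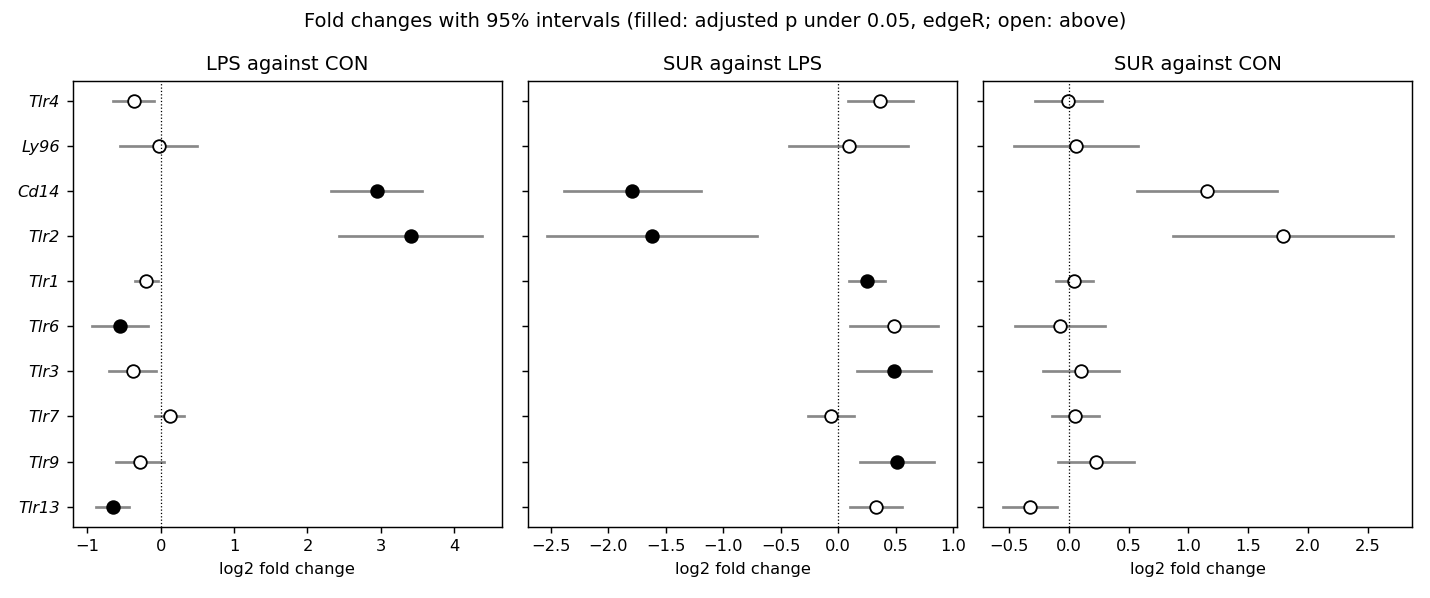
Log2 fold change (horizontal axes, each panel with its own scale) of each gene in the 3 comparisons, with 95% intervals from edgeR's quasi-likelihood test; filled points have an adjusted p under 0.05. In LPS against CON the filled points are Cd14 and Tlr2 on the right and Tlr6 and Tlr13 on the left, and no point is filled in SUR against CON.

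Among the genes of the LPS receptor complex, Cd14 stood at 157, 79.9 and 72.3 CPM in CON 1 to 3, at 760, 790 and 824 CPM in LPS and at 223, 206 and 259 CPM in SUR. All LPS libraries were above all SUR libraries, and all SUR libraries above all CON libraries. The log2 fold change was 2.94 in LPS against CON (SE 0.274, adjusted p = 0.000156) and -1.79 in SUR against LPS (SE 0.261, adjusted p = 0.00213). In SUR against CON it was 1.15 (SE 0.259), 2.22-fold with a 95% interval of 1.48-fold to 3.34-fold, and it was not called (adjusted p = 0.130). The call depended on CON 1 and on the model. Without CON 1, Cd14 was 3.00-fold higher in SUR than in CON and was called (adjusted p = 0.000657), as it was with the block (2.30-fold, adjusted p = 0.00471) and by DESeq2 (adjusted p = 0.000663). Within numbers 1, 2 and 3 the log2 difference of SUR from CON was 0.51, 1.37 and 1.84.

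Tlr4 (GRCm38 chromosome 4, 66827551 to 66846581), the signalling chain of the LPS receptor, was close to the threshold in both comparisons with LPS, and its calls depended on the fit. It stood at 56.0, 68.2 and 75.7 CPM in CON, at 49.2, 53.4 and 52.1 CPM in LPS and at 56.8, 72.3 and 70.2 CPM in SUR. The LPS libraries were below all others, but the lowest CON and SUR libraries were those numbered 1 and lay close to LPS. The log2 fold change was -0.37 in LPS against CON (SE 0.125, adjusted p = 0.0756) and 0.37 in SUR against LPS (SE 0.125, adjusted p = 0.0794). With the block both were called, at -0.36 (SE 0.0630, adjusted p = 0.000833) and 0.36 (SE 0.0629, adjusted p = 0.000917). In SUR against CON the difference was -0.005 with a 95% interval of -0.29 to 0.28, and it was not called with the block either (adjusted p = 0.977). The differences between LPS and each other group were also called without CON 1, at -0.47 (adjusted p = 0.0219) and 0.35 (adjusted p = 0.0465), and with upper-quartile scaling (adjusted p = 0.0315 and 0.0380) and on log2(FPKM + 0.1) (adjusted p = 0.0237 and 0.0277). Relative to the TMM fit, upper-quartile scaling shifted the median over all genes by -0.096 in LPS against CON and 0.089 in SUR against LPS. On log2(FPKM + 0.1) the shifts were -0.133 and 0.137, so the median over all genes moved in the directions of Tlr4 under these scalings.

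Ly96 (chromosome 1, 16682413 to 16709605), which encodes the LPS-binding subunit MD-2, had few counts. It stood at 2.22, 3.65 and 2.26 CPM in CON, at 2.60, 2.52 and 2.84 CPM in LPS and at 3.11, 2.96 and 2.40 CPM in SUR, and the 3 groups overlapped. The 95% interval of its fold ran from 0.682 to 1.41 in LPS against CON and from 0.742 to 1.53 in SUR against LPS, so folds within these bounds remain compatible with the counts. The ratio of Tlr4 to Ly96 in FPKM lay between 0.767 and 1.45 in all 9 libraries. The ratio of Cd14 to Tlr4, by contrast, was 15.3, 6.38 and 5.23 in CON, 84.7, 80.2 and 86.6 in LPS and 21.5, 15.7 and 20.3 in SUR. The LPS libraries were thus close to each other in this ratio, and the CON libraries were not.

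**Figure D3:**
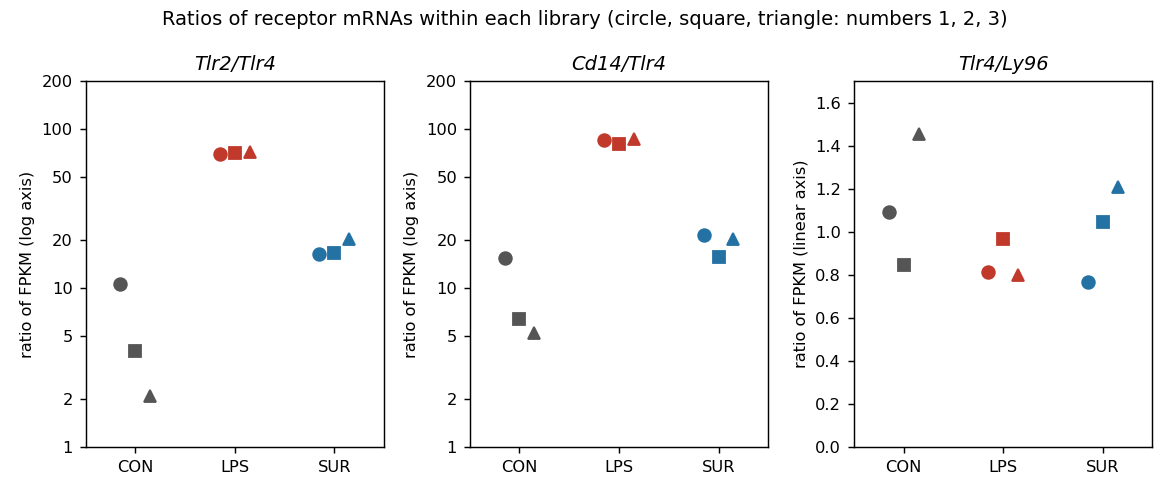
Ratios of FPKM within each library for Tlr2 to Tlr4 and Cd14 to Tlr4 (log axes) and Tlr4 to Ly96 (linear axis from 0), by group, with the marker shape giving the library number. The Tlr2 to Tlr4 ratio is 69.7 to 71.6 in LPS, 16.4 to 20.4 in SUR and 2.09 to 10.6 in CON, where number 1 is highest, while the ratio of Tlr4 to Ly96 overlaps between groups.

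Tlr2 (chromosome 3, 83836272 to 83841824) was the surface receptor gene with the widest range. It stood at 203, 93.1 and 53.8 CPM in CON, at 1164, 1280 and 1268 CPM in LPS and at 316, 408 and 484 CPM in SUR. The groups did not overlap, and the CON libraries differed among themselves more than the LPS libraries did. The log2 fold change in LPS against CON was 3.41 (SE 0.430, adjusted p = 0.00074). Without CON 1 it was 4.09, or 17.0-fold in place of 10.6-fold. Within numbers 1, 2 and 3 the difference was 2.52, 3.78 and 4.56.

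In SUR against LPS the log2 fold change of Tlr2 was -1.62 (SE 0.401, adjusted p = 0.0237), and the differences were -1.88, -1.65 and -1.39 within numbers 1, 2 and 3. That call was lost without LPS 2 (adjusted p = 0.0667), LPS 3 (0.0640), SUR 1 (0.0651), SUR 2 (0.0773) or SUR 3 (0.0562), and it held with the block (adjusted p = 0.00294). It also held without CON 1 (3.10-fold lower, adjusted p = 0.00146), without the libraries numbered 1 (adjusted p = 3.93e-05) and by DESeq2 (adjusted p = 0.00456). Against CON, Tlr2 in SUR was 3.46-fold higher (95% interval 1.83-fold to 6.54-fold, log2 fold change 1.79, SE 0.405) and not called (adjusted p = 0.133). Without CON 1 it was 5.48-fold higher and called (adjusted p = 0.00283). The block (3.72-fold, adjusted p = 0.00778) and DESeq2 (adjusted p = 0.0101) also called it. The ratio of Tlr2 to Tlr4 in FPKM was 10.6, 4.00 and 2.09 in CON, 69.7, 70.2 and 71.6 in LPS and 16.4, 16.6 and 20.4 in SUR. The SUR libraries thus lay between the other groups in this ratio.

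**Figure D4:**
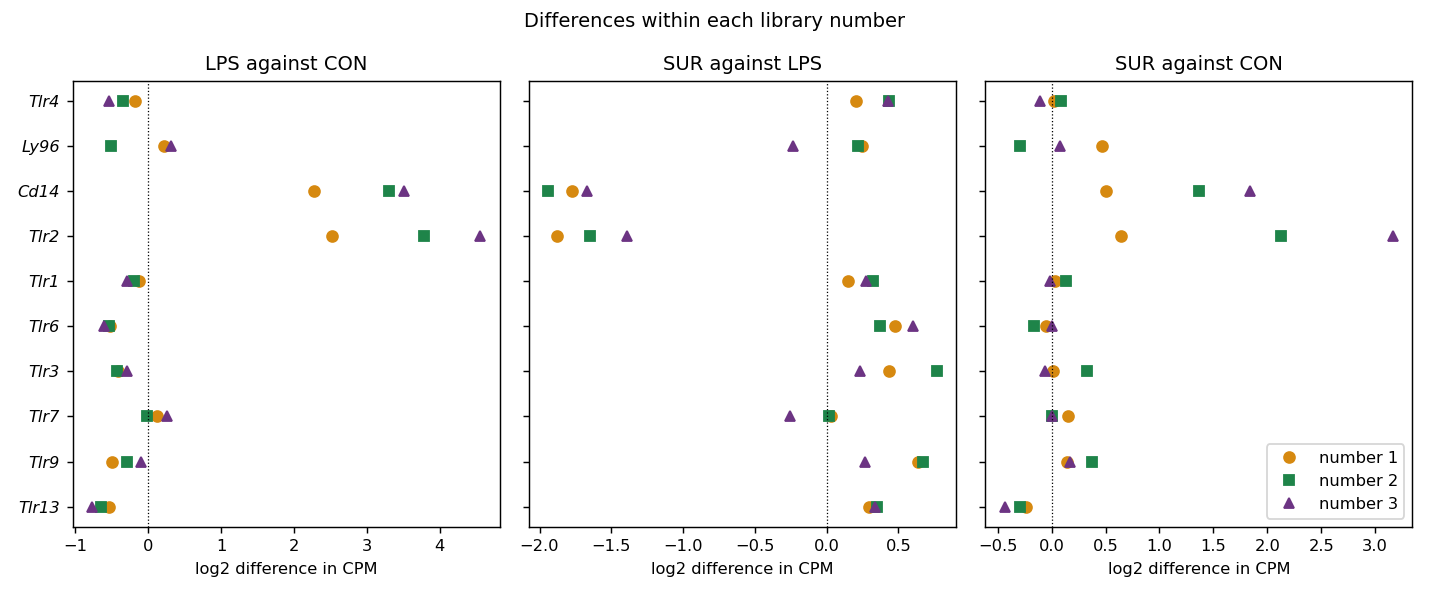
Log2 difference in CPM between the libraries of the same number (horizontal axes, each panel with its own scale; prior count of 2) for each gene and comparison. For Cd14 and Tlr2 the difference of LPS and of SUR from CON is smallest within number 1, and Cd14, Tlr2, Tlr6, Tlr9 and Tlr13 each keep 1 direction within all 3 numbers in every panel.

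Start-site windows of 300 bases (250 before to 50 after the start, RefSeq on GRCm38.p6) were used for 6 of the 10 genes, 8 windows in all. Cd14, Ly96, Tlr4 and Tlr7 had no window in this search. The 8 windows were searched on both strands for the NF-kappaB consensus, since NF-kappaB is a factor that TLR4 signalling activates. Of the 8 windows 2 held a match, Tlr2 with 3 and Tlr3 with 1, beside 8.5% of 32851 windows of all genes. The stretch from 250 to 160 bases before the start is shown for both genes, because one was raised by LPS and the other was not. Capitals mark the consensus, which matches in 2 overlapping positions in Tlr2. RefSeq places both genes on the minus strand, and the stretches lie for Tlr2 at chr3:83841768-83841858 and for Tlr3 at chr8:45410540-45410630. By the deposited coordinates the Tlr3 stretch lies wholly inside the gene (45395665 to 45411075). The Tlr2 stretch crosses the end of the gene at 83841824, and its marked match lies inside the gene. The starts used for both genes are thus inner ones, and the stretches are not wholly upstream of the genes.
Tlr2: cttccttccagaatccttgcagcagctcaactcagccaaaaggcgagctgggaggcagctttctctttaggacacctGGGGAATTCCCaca
Tlr3: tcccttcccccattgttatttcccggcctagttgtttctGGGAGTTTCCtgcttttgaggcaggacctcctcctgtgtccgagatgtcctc
A match describes these letters only and says nothing of binding. The PU.1 core GAGGAA was found in 3 of the 8 windows, 1 of Tlr1 and those of Tlr9 and Tlr13, beside 28.3% of all windows. The same search covered further motifs. AP-1 (7.8% of all windows), the interferon-stimulated response element (3.4%), the E-box (7.2%) and C/EBP (2.1%) each matched in 1 of the 8. CRE matched in 0 (1.8%).

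Tlr1 (chromosome 5, 64924680 to 64933600) and Tlr6 (chromosome 5, 64952030 to 64970942) encode the partners of TLR2 and are neighbouring genes with stretches of identical sequence. Their deposited counts were fractional in all 9 libraries, and the fractions of the pair added up to whole counts in all 9 (to within 0.011), as they do where reads are divided between 2 genes. Their coding sequences in GENCODE M21, of 2388 and 2421 bases, share an identical run of 229 bases, and 31.3% of Tlr1 and 30.9% of Tlr6 lies in identical stretches of at least 50 bases. The run is shown because a read inside it cannot be assigned to either gene. It lies on the minus strand at chr5:64925537-64925765 in Tlr1 and at chr5:64953828-64954056 in Tlr6.
Tlr1 and Tlr6: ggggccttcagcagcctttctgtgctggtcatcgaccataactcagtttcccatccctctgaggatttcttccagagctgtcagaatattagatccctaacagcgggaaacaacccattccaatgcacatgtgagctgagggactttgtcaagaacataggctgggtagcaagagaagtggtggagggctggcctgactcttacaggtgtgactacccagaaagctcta
Separate values for the pair are therefore uncertain.

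As deposited, Tlr6 stood at 18.6, 15.7 and 13.9 CPM in CON, at 12.8, 10.8 and 9.11 CPM in LPS and at 17.9, 14.0 and 13.9 CPM in SUR. LPS libraries were below all others, and within every group the library numbered 1 was highest. The log2 fold change was -0.56 in LPS against CON (SE 0.167, adjusted p = 0.0495), close to the threshold. Leaving out LPS 1 or SUR 1 kept the call, leaving out any other single library lost it (adjusted p from 0.0555 to 0.158), and it held with the block (adjusted p = 0.000199). For SUR against LPS it was 0.48 (adjusted p = 0.0833, and 0.000579 with the block). Against CON, Tlr6 in SUR differed by -0.07 with a 95% interval of -0.45 to 0.30.

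Tlr1 stood at 35.3, 33.5 and 35.2 CPM in CON, at 32.4, 29.3 and 28.8 CPM in LPS and at 35.97, 36.7 and 34.8 CPM in SUR. The LPS libraries were again lowest. Its log2 fold change was -0.20 in LPS against CON (SE 0.0697, adjusted p = 0.0850, and 0.0159 with the block) and 0.25 in SUR against LPS (SE 0.0696, adjusted p = 0.0401). The latter call was lost without any 1 of 8 libraries, LPS 1 being the exception (adjusted p from 0.0557 to 0.157). With the counts of Tlr1 and Tlr6 summed, which does not depend on how reads were divided, the levels were 49.1 to 53.8 CPM in CON, 37.8 to 45.2 CPM in LPS and 48.7 to 53.8 CPM in SUR. The sum was 1.24-fold lower in LPS than in CON (log2 fold change -0.31, SE 0.0828, adjusted p = 0.0332) and 1.24-fold higher in SUR than in LPS (0.32, SE 0.0828, adjusted p = 0.0304). Against CON, SUR differed by 0.01 (SE 0.0822). With LPS the sum thus fell while Tlr2 rose, and the FPKM ratio of Tlr2 to Tlr1 was 1.55 to 5.90 in CON, 36.7 to 44.7 in LPS and 8.96 to 14.4 in SUR.

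Of the endosomal receptor genes, Tlr13 (chromosome X, 106143275 to 106160493) fell with LPS. It stood at 39.4, 47.0 and 49.4 CPM in CON, at 27.1, 30.1 and 28.9 CPM in LPS and at 33.3, 38.4 and 36.6 CPM in SUR. The 3 groups did not overlap, with SUR between the others. Its log2 fold change in LPS against CON was -0.66 (SE 0.10, adjusted p = 0.00201), and it stayed called without each library in turn. In SUR against LPS it was 0.33 (SE 0.10, adjusted p = 0.0542), and the call was made under the block (adjusted p = 0.00105), by DESeq2 (adjusted p = 0.0414) and without CON 1 (adjusted p = 0.0305). In SUR against CON it was -0.33 (SE 0.0992, adjusted p = 0.286), with a 95% interval of -0.55 to -0.10, and the block made the call (adjusted p = 0.0046). Within numbers 1, 2 and 3 the log2 difference of SUR from CON was -0.24, -0.29 and -0.43 for Tlr13.

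Tlr9 (chromosome 9, 106222598 to 106226876), the CpG DNA receptor, stood at 35.4, 32.8 and 39.5 CPM in CON, at 25.1, 26.8 and 36.8 CPM in LPS and at 39.1, 42.7 and 44.3 CPM in SUR. LPS 3 lay within the CON range, and all SUR libraries were above all LPS libraries. The log2 fold change in LPS against CON was -0.28 (SE 0.143, adjusted p = 0.245), and it was -0.47 and called without LPS 3 (adjusted p = 0.0233) and called with the block (-0.29, adjusted p = 0.0173). For SUR against LPS it was 0.51 (SE 0.143, adjusted p = 0.0395). Leaving out CON 3 or LPS 3 kept that call, and leaving out any other single library lost it (adjusted p from 0.0539 to 0.133). It held with the block (adjusted p = 0.000456). Against CON, Tlr9 in SUR differed by 0.23 with a 95% interval of -0.09 to 0.55.

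Tlr3 (chromosome 8, 45395665 to 45411075), the double-stranded RNA receptor, stood at 9.46, 9.98 and 10.8 CPM in CON, at 7.04, 7.35 and 8.84 CPM in LPS and at 9.57, 12.6 and 10.4 CPM in SUR. The LPS libraries were below all others. The deposited table lists Tlr3 on the plus strand, whereas RefSeq and GENCODE give the minus strand, and the sources used here do not say whether counting used the strand, so these levels carry that doubt. The log2 fold change was -0.38 in LPS against CON (SE 0.142, adjusted p = 0.105, and 0.0213 with the block) and 0.49 in SUR against LPS (SE 0.142, adjusted p = 0.0461). Leaving out LPS 3 or SUR 1 kept the latter call, and leaving out any other single library lost it (adjusted p from 0.0611 to 0.186). Against CON, Tlr3 in SUR differed by 0.11 with a 95% interval of -0.21 to 0.42.

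Tlr7 (chromosome X, 167303380 to 167330574), the single-stranded RNA receptor, was not called in any comparison or under any other setting run. It stood at 50.03, 56.6 and 47.8 CPM in CON, at 54.5, 56.1 and 57.3 CPM in LPS and at 55.6, 56.8 and 48.1 CPM in SUR. The groups overlapped. The 95% interval of its fold was 0.947 to 1.25 in LPS against CON, so a fall of the size estimated for Tlr13 lay outside it. Its sign in LPS against CON turned on FPKM (-0.04 with 0.1 added). Tlr7 counts were fractional in all 9 libraries, and no single gene held the complementary fractions. The FPKM ratio of Tlr7 to Tlr9 was 1.00 to 1.42 in CON, 1.27 to 1.75 in LPS and 0.888 to 1.15 in SUR.

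Over the 9 libraries, the genes whose log2 CPM followed Cd14 most closely among 7694 abundant ones were Birc3 (Pearson r = 0.998), which encodes an inhibitor of apoptosis, Cited2 (0.996) and Clec4e (0.996), a lectin receptor. For Tlr2 they were Gadd45a (0.999), a growth arrest gene, Maff (0.997), a transcription factor gene, and Tnfsf9 (0.994), a TNF family ligand. For Tlr4 they were Rgs14 (0.980), Tmem43 (0.971) and Plekhb2 (0.969), and for Tlr13 Gcsh (0.978), Wdr73 (0.976) and Pwwp2b (0.973). These are descriptions across libraries that share groups and numbers. Cd14 and Tlr2 followed each other with r = 0.979, and Tlr13 ran opposite to both (r = -0.967 and -0.954).

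Of the remaining Toll-like receptor genes, Tlr11 and Tlr12 had at most 1 count in a library and were not tested. Tlr5, the flagellin receptor, had a mean of 35.0 ± 2.38 CPM in CON, 25.1 ± 4.12 in LPS and 39.1 ± 5.24 in SUR. It fell with LPS (log2 fold change -0.48, SE 0.139, adjusted p = 0.0430) and was higher in SUR than in LPS (0.64, SE 0.138, adjusted p = 0.0133, lost without SUR 3 at 0.0524). Tlr8 was at 11.8 ± 3.39, 5.63 ± 2.29 and 14.6 ± 5.11 CPM, with -1.07 in LPS against CON (adjusted p = 0.0927) and 1.37 in SUR against LPS (adjusted p = 0.0391). With the block, and by DESeq2, Tlr8 was also called in LPS against CON. The fall of Tlr5 was lost without any 1 CON library, LPS 1, LPS 3 or SUR 2, and the higher level of Tlr8 without CON 2, LPS 1, LPS 2, SUR 2 or SUR 3.

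Of 20 genes whose products carry and process Toll-like receptors, 1 was called higher and 2 lower with LPS (8.98% and 9.36% of all tested genes), and 4 and 3 with the block (20.1% and 21.7%), which is near or below the share of all genes. Slc15a3, a lysosomal peptide transporter, rose from 81.5 ± 8.61 to 173 ± 9.84 CPM (2.12-fold, adjusted p = 0.000111) and fell to 87.9 ± 7.38 CPM in SUR (1.97-fold, adjusted p = 0.000325). Rab7b, a GTPase that routes TLR4 and TLR9 to lysosomes, fell from 165 ± 10.8 to 121 ± 7.71 CPM (adjusted p = 0.00259) and was at 150 ± 3.49 CPM in SUR (adjusted p = 0.0179 against LPS, lost without LPS 1, LPS 2 or any 1 SUR library). Cnpy4, a relative of TLR4 chaperones, fell 1.41-fold (adjusted p = 0.0355, lost without CON 1, CON 3, SUR 2 or any 1 LPS library). Unc93b1, the chaperone of the endosomal receptors, had a log2 fold change of -0.03 with LPS (SE 0.0630, adjusted p = 0.832). In SUR against LPS 1 of the 20 was called higher and 1 lower (9.29% and 7.93% of all tested genes), and 2 and 7 with the block (22.6% and 22.7%). The same shares of all genes stand beside the counts of the further lists.

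Of 12 genes for LPS handling and further co-receptors 9 were tested. edgeR called 0 of them with LPS (0 at an unadjusted p under 0.05, by DESeq2, limma-voom or limma on FPKM, and 4 with the block) and 0 in SUR against LPS (1 at an unadjusted p under 0.05, 0 by the same tools and 3 with the block). Lbp, which encodes LPS-binding protein, had at most 3 counts in a library and was not tested. Of 11 adaptor and proximal kinase genes 5 rose and 2 fell with LPS. Irak2, a kinase below MyD88, rose 3.93-fold (adjusted p = 7.06e-05), Ticam1, the gene of TRIF, 2.08-fold (adjusted p = 0.000863) and Myd88 1.63-fold (adjusted p = 0.000936). The bridging adaptor gene Ticam2 fell 1.45-fold (adjusted p = 0.0247, lost without CON 1, CON 3, LPS 2 or LPS 3). Outside the naming rule, Traf3 (1.44-fold) and Traf6 (1.30-fold) were called higher and Tirap (1.36-fold) lower. For SUR against LPS the genes Irak2, Ticam1, Myd88 and Ticam2 were called in the opposite directions, with log2 fold changes of -1.48 for Irak2, -1.09 for Ticam1, -0.48 for Myd88 and 0.62 for Ticam2 (lost without LPS 2, LPS 3 or SUR 3), and 2 of the 11 were higher and 4 lower (3 and 6 with the block).

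Receptor-proximal inhibitors held 3 rises among 10 with LPS (5 and 2 falls with the block, 1 rise on FPKM or with upper-quartile scaling). Tnfaip3, the gene of the deubiquitinase A20, rose 14.3-fold (adjusted p = 0.0140). It was at 194, 44.6 and 9.05 CPM in CON 1 to 3, the same order of libraries as for Tlr2, and the log2 fold change of 3.84 was 5.48 without CON 1 and not called without CON 2 (3.54, adjusted p = 0.0637). Irak3 (1.32-fold) lost its call when any 1 library other than CON 1, LPS 1 or SUR 1 was left out, and Trafd1 (1.31-fold) lost it without CON 1, CON 3 or any 1 LPS library. In SUR against LPS 0 were higher and 2 lower, Irak3 (log2 fold change -0.45, adjusted p = 0.0234) and Trafd1 (-0.37, adjusted p = 0.0365). Both were lost without any 1 SUR library, LPS 2 or LPS 3, and the block gave 2 and 3 and FPKM 0 and 0. Tnfaip3, at 449, 363 and 486 CPM in SUR, was below all LPS libraries (1227, 1130 and 1194 CPM). Its difference was larger but not called (log2 fold change -1.45, SE 0.781, adjusted p = 0.258). Of 12 tested pattern recognition receptors outside the family, 5 rose and 1 fell with LPS (7 and 1 with the block). The rises included Nod2, a sensor of peptidoglycan (7.93-fold, adjusted p = 7.06e-05), Clec4e (6.97-fold, adjusted p = 0.00022) and Ifih1, an RNA sensor (5.44-fold, adjusted p = 0.000943), besides Nod1 (2.33-fold) and, outside the naming rule, Clec4d (1.57-fold), and Tmem173 fell 1.18-fold. For SUR against LPS 4 were lower and 0 higher (6 and 2 with the block), with Ifih1 6.16-fold, Nod2 4.51-fold and Clec4e 3.03-fold lower; the fourth, Clec4d, was 1.54-fold lower and lost its call without LPS 2, LPS 3 or any 1 SUR library.

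Beside a median log2 fold change of -0.01 over all tested genes in LPS against CON and in SUR against LPS, the lists had medians of 0.02 and -0.05 (carriers and processing), 0.09 and -0.02 (LPS handling), 0.08 and -0.15 (adaptors and kinases), 0.09 and -0.03 (inhibitors) and 0.32 and -0.22 (further recognition receptors). In SUR against CON edgeR called 0 genes of each of these lists, and limma-voom and limma on FPKM also 0. At an unadjusted p under 0.05 there were 1, 0, 3, 2 and 2 genes of these lists in the same order, DESeq2 called 0, 0, 1, 1 and 2, and the block 1, 2, 3, 3 and 2. Over the whole table DESeq2 called 224 genes higher and 33 lower, and the block 7.37% higher and 4.18% lower. No share of all genes is at hand for the unadjusted counts, so they cannot be set against one.

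Spi1, which encodes the macrophage factor PU.1, also moved with the groups: its mean was 281 ± 5.56 CPM in CON, 380 ± 30.0 in LPS (1.35-fold higher, adjusted p = 0.00286) and 286 ± 11.2 in SUR (1.33-fold lower than in LPS, adjusted p = 0.0047). Csf1r, the receptor gene for the growth factor CSF1, was 1.24-fold higher in LPS than in CON (adjusted p = 0.00743) and 1.18-fold lower in SUR than in LPS (adjusted p = 0.0326, lost without CON 3 or any 1 LPS or SUR library). With limma on log2(FPKM + 1) and log2(FPKM + 0.1) the former call was lost (adjusted p = 0.0558 and 0.0568). So was the latter (0.292 and 0.295), which edgeR with upper-quartile scaling also lost (0.126). The other 6 of the 8 macrophage markers were not called in either comparison without the block. There 8.98% of all tested genes were called higher in LPS against CON and 7.93% lower in SUR against LPS. With the block 4 of the 8 were called in LPS against CON, where 20.1% of all genes were higher and 21.7% lower. In SUR against LPS 5 of the 8 were called with the block, where 22.6% of all genes were higher and 22.7% lower. The summed level of the 8 overlapped between groups, at 4263 to 6761 FPKM in CON, 3927 to 6602 in LPS and 4112 to 6842 in SUR. Lyz2 alone was at 1781, 1760 and 1750 CPM in CON 1, LPS 1 and SUR 1. It was at 3453 to 3890 CPM in the libraries numbered 2 and 3, so overlap of the sums says little about the groups. The part of these markers in the receptor results was not tested.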

How the data were processed

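The authors deposited 1 table for the 9 libraries, made with HISAT2 2.0.4 and build GRCm38 (mm10) per the submitters' processing notes; the sources used here do not name the counter or the annotation. Per the file headers, the values the authors deposited are expected counts, not normalized (93.36% of them whole), and FPKM, which the authors scaled for gene length and depth.

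Counts were rounded and filtered with edgeR 4.0.16's filterByExpr (11281 genes tested, 3490 not). TMM factors were 0.934 to 1.04. All 9 libraries entered 1 quasi-likelihood fit (glmQLFit, R 4.3.3) with a mean per group, 6 residual degrees of freedom and Benjamini-Hochberg adjustment at 0.05. SE came from the F statistic. The script was tested on simulated data. Alternatives used DESeq2 1.42.0, limma 3.58.1 (voom, and log2(FPKM + 1) or log2(FPKM + 0.1)), other scalings, no filter, only the 2 groups compared, libraries left out, and the library number as a block. The deviations of equal-numbered libraries from their group means correlated at 0.435 to 0.801, and the block fit treated equal numbers as paired. The values from 0.701 up were those of number 1, and numbers 2 and 3 gave 0.435 to 0.586. Number 2 with number 3 of another group gave 0.347 to 0.437, and number 1 with the others -0.643 to -0.521. The correlations thus mainly set number 1 apart, and a pairing of numbers 2 and 3 is less certain. The main fit, which gives the calls unless another is named, leaves this pairing out.

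The members and gene lists were chosen with earlier results of these data known. Named are all 10 members, up to 4 called genes per further list and comparison with the largest changes, and up to 3 genes that follow a member (mean log2 CPM of at least 4, prior count 2). Those named as not called, or as markers, were chosen after their values were seen. Summing Tlr1 and Tlr6 was chosen after seeing the data. Figures used matplotlib 3.10.9.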

Additional observations from a re-analysis of the deposited data

How the results depend on the processing

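Cd14 and Tlr2 were called higher in LPS than in CON, and Tlr13 lower, under each of 19 alternatives, and so was the lower Cd14 in SUR than in LPS. Against 2 members called lower in LPS than in CON, there were 5 with upper-quartile scaling, log2(FPKM + 1) or log2(FPKM + 0.1), 1 with DESeq2 size factors, no filter, limma-voom or only the 2 groups compared, 4 without the libraries numbered 1, and 1 to 3 without single libraries. Genes of the whole table called lower rose likewise, from 1056 to 1709 with upper-quartile scaling, 2040 and 2056 on the FPKM scales and 1634 without the libraries numbered 1. Against 3 called higher in SUR than in LPS, there were 6 with upper-quartile scaling or without the libraries numbered 1, 5 on either FPKM scale, 0 without a filter, 1 with only the 2 groups, and 0 to 2 without single libraries. Over the whole table the genes called higher went from 1048 to 1595 with upper-quartile scaling, 1970 on either FPKM scale and 1665 without the libraries numbered 1. The 2 called lower became 1 to 2 without single libraries. In SUR against CON the 0 called higher became 2 with DESeq2 or without the libraries numbered 1 and 0 to 2 without single libraries, and the 0 called lower became 1 without the libraries numbered 1, where all genes called higher went from 44 to 224 with DESeq2 and 503 without the libraries numbered 1. With the replicate block 6 were called lower in LPS than in CON, 6 higher in SUR than in LPS, and 2 higher and 1 lower in SUR than in CON. The cause of these changes was not tested.

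Uncalled log2 fold changes turned sign as follows. In LPS against CON, Ly96 was 0.012 with limma-voom and -0.145 to 0.242 without single libraries, and Tlr7 was -0.035 and -0.038 on log2(FPKM + 1) and log2(FPKM + 0.1). In SUR against LPS, Tlr7 was 0.025 with upper-quartile scaling, 0.069 and 0.073 on the FPKM scales and -0.125 to 0.007 without single libraries, and Ly96 was -0.016 without the libraries numbered 1. In SUR against CON, Ly96 was -0.142 without the libraries numbered 1 and -0.07 to 0.332 without single libraries, Tlr4 was -0.119 to 0.098, Tlr6 -0.198 to 0.039 and Tlr3 -0.015 to 0.192 without single libraries, and Tlr6 was 0.01 with Tlr1 and Tlr6 summed. Relative to the TMM fit, the median over all genes shifted by -0.133 in LPS against CON and 0.137 in SUR against LPS on log2(FPKM + 0.1). Ly96 had under 4 CPM in every library, which limits what its counts can show.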
